A study of Mus musculus with 31 samples.

Results

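The genes described here are 7 transcription factors of the oligodendrocyte lineage: Olig2, Olig1, Nkx2-2, Sox10, Sox8, Zfp488 and Myrf. They were chosen by name and not by their values. All 7 were among the 16301 genes of the bulk RNA table and the 27998 genes of the single-cell RNA matrix, and 26 of the 96670 single-cell ATAC peaks lay within 2 kb of one of them. The series measured RNA and open chromatin in cells of the mouse spinal cord (C57BL/6). Bulk RNA came from sorted cells labelled ependymal, in 2 genotypes, Foxj1_tdT (the control) and Foxj1_Olig2_tdT, each taken without injury, 1 day after injury (1 dpi) and 5 days after injury (5 dpi), with 2 libraries in each of the 6 groups. The single-cell data were 6 RNA libraries of the same genotypes (uninjured, 2 and 4 weeks after injury) and 1 ATAC sample of non-neuronal cells from the uninjured cord.

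The labels name the genotypes by Foxj1, Olig2 and tdT only: they do not describe the alleles, the way Olig2 was added, the injury, the animals' ages or whether animals were pooled. Both genotypes carry Foxj1 and tdT in their names, so by name the contrast between them is the added Olig2. Any other difference between the genotypes cannot be told apart from it here. The labels do not say whether the 2 libraries of a group are separate animals, and if they are not, each p-value reflects technical spread only. Reads of the added and of the cell's own Olig2 cannot be told apart in a table of 1 value per gene.

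Oligodendrocytes, the cells that wrap axons in myelin, arise from progenitors in which Olig2 and Olig1, basic helix-loop-helix factors, are switched on early. Sox10, an SRY-box factor, acts with Olig2 in the progenitor and then with Myrf, which switches on myelin genes as the cell matures. Sox8 is a close relative of Sox10, Nkx2-2 is a homeodomain factor of progenitors about to differentiate, and Zfp488 is a zinc finger partner of Olig2. Ependymal cells, the ciliated cells lining the central canal, are marked by Foxj1, the regulator of motile cilia.

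The promoters of Olig2, Nkx2-2, Sox8 and Zfp488 are shown because each lies wholly inside an open-chromatin peak of a gene whose use by cell class is described further on. They are the 250 bases before the start site, from RefSeq (GRCm38.p6), 5′ to 3′ on the gene's own strand. RefSeq entries were matched for these 4 of the 7 genes. Olig2 lies at chr16:91225300-91225549 (plus strand), Nkx2-2 at chr2:147186403-147186652 (minus strand), Sox8 at chr17:25570687-25570936 (minus strand) and Zfp488 at chr14:33978765-33979014 (minus strand). Capitals mark a match to a searched motif.

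Olig2: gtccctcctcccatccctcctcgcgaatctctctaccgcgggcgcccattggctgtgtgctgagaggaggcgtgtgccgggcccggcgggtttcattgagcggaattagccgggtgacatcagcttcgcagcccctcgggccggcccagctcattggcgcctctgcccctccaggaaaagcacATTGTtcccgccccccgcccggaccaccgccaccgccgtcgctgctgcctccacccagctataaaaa
Nkx2-2: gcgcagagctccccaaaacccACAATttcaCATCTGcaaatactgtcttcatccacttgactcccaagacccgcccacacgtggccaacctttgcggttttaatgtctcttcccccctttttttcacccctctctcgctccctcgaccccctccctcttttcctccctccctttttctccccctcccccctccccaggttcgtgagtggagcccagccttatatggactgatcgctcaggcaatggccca
Sox8: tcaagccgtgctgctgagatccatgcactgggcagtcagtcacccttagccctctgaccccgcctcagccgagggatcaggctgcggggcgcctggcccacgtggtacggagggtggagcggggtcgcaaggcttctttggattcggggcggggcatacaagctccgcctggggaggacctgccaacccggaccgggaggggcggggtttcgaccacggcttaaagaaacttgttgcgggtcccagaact
Zfp488: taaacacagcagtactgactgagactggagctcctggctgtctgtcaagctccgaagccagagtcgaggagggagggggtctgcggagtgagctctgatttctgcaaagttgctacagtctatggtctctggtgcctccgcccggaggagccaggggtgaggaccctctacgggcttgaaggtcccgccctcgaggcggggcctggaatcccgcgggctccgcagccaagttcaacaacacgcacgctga

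The motifs searched on both strands were CATNTG and CAGCTG, forms of the E-box that basic helix-loop-helix factors can bind, and ACAAT, the core of SRY-box sites. The Olig2 window held 1 ACAAT match, on the reverse strand, 67 bases before the start. The Nkx2-2 window held 1 CATNTG match (CATCTG), 220 bases before the start, and 1 ACAAT match, 229 bases before it. The Sox8 and Zfp488 windows held no match to any of the motifs. Of 32851 promoter windows of this length, 27.7% held ACAAT, 35.0% held CATNTG and 13% held CAGCTG. A match describes letters, not a bound site.

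Bulk values are the authors' normalised counts, in sums of 12601289.7 to 13878101.7 per library. All 8 listed ependymal markers were above 0 in every library, and Foxj1 ranged from 933.9 to 3386.6. Replicates correlated at r = 0.864 to 0.928 across genes in 5 groups and at 0.989 in uninjured Foxj1_tdT. In those 5 groups, 56 to 412 genes were at 0 in 1 replicate and at 50 or more in the other. Uninjured Foxj1_tdT had 5 such genes, and a 0 in 1 library need not mean absence. Tests were limma fits on log2(normalised count + 1) with 1 mean per group. All 7 factors passed the filter on low values (at least 10 in 2 libraries), and a change counted as called where the p adjusted over 15811 genes by Benjamini-Hochberg was under 0.05. Fold changes are on that log2 scale, which understates changes of low genes.

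Olig2 itself was higher in the Foxj1_Olig2_tdT libraries at every time. It read 2450.1 and 1690.3 without injury, then 3840.5 and 3960.9 at 1 dpi, then 2794.1 and 3792.5 at 5 dpi. In Foxj1_tdT it read 4.5 and 4.4 without injury, then 11.7 and 2.2 at 1 dpi, then 17.4 and 195.2 at 5 dpi. The groups of the 2 genotypes did not overlap at any time. The log2 difference was 8.55 ± 0.96 (SE) without injury, 9.26 ± 0.96 at 1 dpi and 5.76 ± 0.96 at 5 dpi (limma adjusted p = 0.00114, 0.00264 and 0.00517). Leaving out the second Foxj1_Olig2_tdT library at 5 dpi gave 5.54 with limma adjusted p = 0.0541.

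Among the 6 other factors, Sox10 differed between genotypes and did so at 5 dpi. Without injury and at 1 dpi, Olig2 was the 1 factor of 7 called, where 7.79% and 1.84% of all genes were called. At 5 dpi Olig2 and Sox10, 2 of 7, were called, against 9.23% of all genes.

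Sox10 was listed at 591.6 and 765.4 in Foxj1_Olig2_tdT at 5 dpi, and at 0 in both Foxj1_tdT libraries of that time. In the other libraries of Foxj1_Olig2_tdT it was at 0 and 1 without injury and at 0 in both at 1 dpi. The Foxj1_tdT libraries read 0 and 0 without injury and 6.3 and 0 at 1 dpi. No library outside Foxj1_Olig2_tdT at 5 dpi reached 10, so Sox10 passed the filter on low values through that group alone. The filter and the p-values that follow thus rest on the same libraries. The genotype difference at 5 dpi had limma adjusted p = 0.000694, with no fold given because the control was listed at 0. Within Foxj1_Olig2_tdT the rise from uninjured to 5 dpi was 8.90 ± 1.06 (limma adjusted p = 0.000172), while at 1 dpi limma adjusted p was 0.826. The change to 5 dpi itself differed between genotypes (limma adjusted p = 0.00897 for the interaction). Without the first or the second uninjured Foxj1_tdT library that interaction had limma adjusted p = 0.0603 and 0.0584, and with both counted as 1 library 0.0602. Leaving out either Foxj1_Olig2_tdT library at 5 dpi dropped Sox10 from the filter. With the filter taken from all 12 libraries, an alternative added after seeing the data, Sox10 was tested without each library in turn. Where a Foxj1_Olig2_tdT library at 5 dpi was left out, Sox10 still passed through that same library. Its calls in those runs thus add no separate support.

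Olig1, a relative of Olig2 encoded near it, rose by 5 dpi in both genotypes. In Foxj1_tdT it read 0 and 0.9 without injury, then 52.1 and 0 at 1 dpi, then 64.6 and 1158.7 at 5 dpi. In Foxj1_Olig2_tdT it read 0 and 1 without injury, then 0 and 0 at 1 dpi, then 536.9 and 52.5 at 5 dpi. The replicates at 5 dpi lay far apart and the genotypes overlapped there. The genotype difference at 5 dpi was -0.70 ± 1.94 (limma adjusted p = 0.881), an error wide enough that a sizeable difference in either direction was not detectable. From uninjured to 5 dpi Olig1 rose by 7.64 ± 1.94 in Foxj1_tdT and by 6.91 ± 1.94 in Foxj1_Olig2_tdT (limma adjusted p = 0.0186 and 0.0217). In Foxj1_Olig2_tdT the rise was not called without the first uninjured library (limma adjusted p = 0.0884) or the first at 5 dpi (0.151). The difference between these changes was -0.74 ± 2.74 (limma adjusted p = 0.907).

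The control cells' own Olig2 also rose with injury, by 3.46 ± 0.96 at 5 dpi in Foxj1_tdT (limma adjusted p = 0.027). In Foxj1_Olig2_tdT the change to 5 dpi was 0.68 ± 0.96 (limma adjusted p = 0.631), and the difference between the changes was -2.79 ± 1.35 (limma adjusted p = 0.248). Without the first Foxj1_tdT library at 5 dpi that difference was -4.49 and called (limma adjusted p = 0.0292). Thus 2 of 7 factors, Olig1 and Olig2, were called in Foxj1_tdT from uninjured to 5 dpi, where 23.0% of all genes were called. The second Foxj1_tdT library at 5 dpi was the higher for both genes. Without it the changes were 1.76 for Olig2 and 5.57 for Olig1 (limma adjusted p = 0.148 and 0.127), and neither was called. Neither was called without the first uninjured library (limma adjusted p = 0.114 for both), nor without the second (0.116 for Olig2 and 0.0795 for Olig1).

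Zfp488 moved the other way in the Foxj1_Olig2_tdT libraries after injury. It read 69.4 and 45.3 without injury, then 24.3 and 16.9 at 1 dpi, then 5.4 and 8.7 at 5 dpi. In Foxj1_tdT it read 21.3 and 30.7 without injury, then 13.8 and 18.9 at 1 dpi, then 44 and 44.8 at 5 dpi. Uninjured Foxj1_Olig2_tdT libraries lay above the uninjured control libraries and those at 5 dpi lay below theirs, with no overlap at either time. Within Foxj1_Olig2_tdT it fell by 2.86 ± 0.73 from uninjured to 5 dpi (limma adjusted p = 0.0144). The genotype difference was 1.10 ± 0.73 without injury, 0.31 ± 0.73 at 1 dpi and -2.53 ± 0.73 at 5 dpi (limma adjusted p = 0.415, 0.895 and 0.0608). The interaction at 5 dpi was -3.63 ± 1.04 (limma adjusted p = 0.0637). The fall had limma adjusted p = 0.0588 without the first uninjured Foxj1_Olig2_tdT library and 0.0752 without the first at 5 dpi. A pseudocount of 8 brought the interaction to -2.74 with limma adjusted p = 0.0427. The genotype difference at 5 dpi was called with a pseudocount of 8 (-1.81, limma adjusted p = 0.0446), with quantile normalization (-2.94, 0.0475) and without the second uninjured Foxj1_Olig2_tdT library (-2.53, 0.0492).

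In all, Olig1, Sox10 and Zfp488, 3 of 7 factors, were called in Foxj1_Olig2_tdT from uninjured to 5 dpi, where 31.2% of all genes were called. At 1 dpi 0 of 7 were called against uninjured in either genotype by limma, at a background of 8.09% in Foxj1_Olig2_tdT and 27.4% in Foxj1_tdT. None of the 7 had an unadjusted p under 0.05 there. The interaction was called for 0 of 7 at 1 dpi by limma, with 0 at an unadjusted p under 0.05 (2.77% of all genes were called), and for 1 of 7, Sox10, at 5 dpi (7.28% of all genes).

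**Figure D1:**
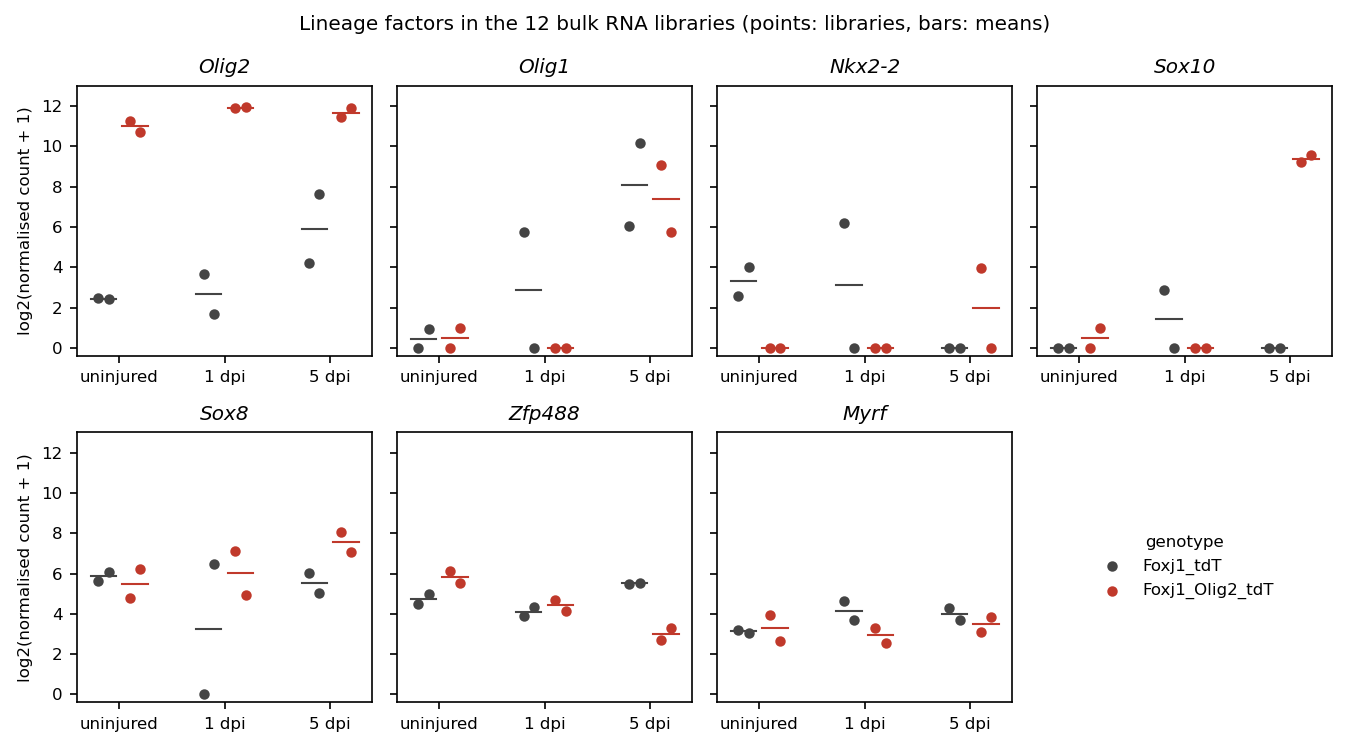
Normalised counts of the 7 factors in the 12 bulk RNA libraries, as log2(value + 1) on the vertical axis, by time after injury on the horizontal axis; points are libraries (dark, Foxj1_tdT; red, Foxj1_Olig2_tdT) and bars are means of 2. Sox10 stands above 0 in both Foxj1_Olig2_tdT libraries at 5 dpi, at 591.6 and 765.4, and Zfp488 is lowest in that group, at 5.4 and 8.7.

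The 3 remaining factors had no called change. Sox8 read 48.8 and 67 without injury, then 0 and 86.3 at 1 dpi, then 63.9 and 31.3 at 5 dpi in Foxj1_tdT. In Foxj1_Olig2_tdT it read 26.4 and 74.1, 138.6 and 29.7, and 265.6 and 133.3 at the same times. At 5 dpi the Foxj1_Olig2_tdT libraries were both above the controls, by 2.05 ± 1.70 (limma adjusted p = 0.518). One Foxj1_tdT library at 1 dpi was listed at 0. Without the other one the change from uninjured to 1 dpi in Foxj1_tdT was -5.86 and was called (limma adjusted p = 0.00992).

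Nkx2-2 was listed at 0 in 5 of the 6 Foxj1_Olig2_tdT libraries and at 14.8 in the first at 5 dpi. In Foxj1_tdT it read 4.9 and 15.4 without injury, then 72.5 and 0 at 1 dpi, then 0 and 0 at 5 dpi. One group was at 0 in each genotype comparison, so no fold is given (limma adjusted p = 0.332, 0.458 and 0.575 in order of time). Myrf stayed between 4.9 and 23.9 in all 12 libraries. Its genotype difference was 0.16 ± 0.88 without injury, -1.22 ± 0.88 at 1 dpi and -0.49 ± 0.88 at 5 dpi (limma adjusted p = 0.962, 0.544 and 0.795).

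Markers of other cell types moved with some of these values. The 9 measured oligodendrocyte progenitor markers made up 0.0531% and 0.0334% of the counts in Foxj1_Olig2_tdT at 5 dpi, against 0.00983% and 0.0259% in Foxj1_tdT. Pdgfra, the growth factor receptor that defines progenitors, was at 437.1 and 1.1 in the former and at 0 and 1 in the latter. Gpr17, a receptor of committed progenitors, was at 179.6 and 0 against 0 and 0. The 9 markers did not all move this way: C1ql1, also among them, was lower in Foxj1_Olig2_tdT at 5 dpi, with values given further on. Sox10 was high in both of those Foxj1_Olig2_tdT libraries. The second, with Pdgfra at 1.1 and Gpr17 at 0, had 8 of the 9 progenitor markers above 0. The first had 9, and the Foxj1_tdT libraries of that time had 6 and 8. The 8 ependymal markers summed to 0.0667% and 0.0485% in Foxj1_Olig2_tdT at 5 dpi, against 0.229% and 0.271% in Foxj1_tdT. The Schwann cell list, whose cells also use Sox10, summed to 0.00534% and 0.004% in the Foxj1_Olig2_tdT libraries at 5 dpi and to at most 0.00173% elsewhere. The 4 fibroblast markers summed to 0.071% and 0.065% in Foxj1_Olig2_tdT at 5 dpi, against 0.0502% and 0.0351% in Foxj1_tdT. The endothelial list was higher there too (0.0012% and 0.00172% against 0.000394% and 0.000537%), as was the neuron list (0.06% and 0.0787% against 0.0428% and 0.0239%). So were the oligodendrocyte list and the microglia and macrophage list, while the astrocyte and pericyte lists were lower. In the first Foxj1_tdT library at 1 dpi, which held Olig1 at 52.1, Nkx2-2 at 72.5, Sox10 at 6.3 and the highest Myrf value, the 9 oligodendrocyte markers summed to 0.176% and the fibroblast markers to 0.106%, against 0.0166% and 0.00163% in its replicate. The oligodendrocyte markers summed to 0.0166% to 0.112% in the other libraries. The part of these cell types in the results was not tested. In bulk samples fewer cells of a type and less RNA per cell cannot be told apart.

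Other genes of the pathway were taken from 5 lists of 88 genes, of which 79 were tested. Between genotypes 7 of them were called without injury, 2 at 1 dpi and 7 at 5 dpi, or 8.86%, 2.53% and 8.86%, shares near the 7.79%, 1.84% and 9.23% of all genes. Of 18 tested myelin genes, 0 were called without injury or at 1 dpi by limma (1 and 3 had an unadjusted p under 0.05), and Cnp was called at 5 dpi. Cnp, a myelin enzyme gene, was higher by 0.97 ± 0.19 (limma adjusted p = 0.0107), at 4336.9 and 3775.3 against 2002.6 and 2138.8. The median over the list was 0.73 at 5 dpi, beside 0.01 over all genes. The list holds genes that ependymal cells also express.

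Of 14 tested membrane and secreted genes of progenitors, 2 were higher without injury, 1 at 1 dpi, and 1 was higher and 1 lower at 5 dpi. Vcan, a proteoglycan of the progenitor surface, was at 128.3 and 329.3 without injury against 0 and 1 in the control, a difference of 7.19 ± 0.54 (limma adjusted p = 0.000219). Ptprz1, a receptor phosphatase, was higher by 2.68 ± 0.42 without injury and by 1.95 ± 0.42 at 1 dpi (limma adjusted p = 0.00489 and 0.0496), and the call at 1 dpi was lost in 20 of 30 alternatives. These came with Sox10 at 0 to 1. Susd5 was higher at 5 dpi by 5.33 ± 1.21 and C1ql1, a secreted progenitor protein gene, was lower by 4.95 ± 0.95 (limma adjusted p = 0.0234 and 0.0106). The list's median was 0.00 without injury, 1.63 at 1 dpi and 2.29 at 5 dpi, beside 0.00, -0.02 and 0.01 over all genes.

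Of 23 tested other regulators, 0 were called at 1 dpi by limma (6 had an unadjusted p under 0.05), and 1 was higher and 1 lower at 5 dpi. Without injury Zfp536, a zinc finger gene, was at 234.3 and 197.9 against 0.7 and 3.3 (6.32 ± 0.88, limma adjusted p = 0.00275). At 5 dpi Nkx6-1, a ventral patterning factor, was lower by 1.97 ± 0.31 and Hdac2, a histone deacetylase, was higher by 0.95 ± 0.26 (limma adjusted p = 0.0041 and 0.0488). The call of Hdac2 was lost in 20 of 30 alternatives.

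Of 12 tested inhibitors of differentiation, Id3 was higher without injury and Id4 lower at 5 dpi. Both encode proteins that block helix-loop-helix factors. Id3 was at 55.9 and 81.9 against 0 and 0 (limma adjusted p = 0.00222), and Id4 was lower by 2.25 ± 0.31, at 429.8 and 608.3 against 1968.8 and 3029.1 (limma adjusted p = 0.00199). Of 12 tested genes of committed and newly formed oligodendrocytes, Tnfaip6 was higher and Tmem2 lower without injury, Tmem2 was lower at 1 dpi and Frmd4a was higher at 5 dpi. Tmem2 was lower by 3.61 ± 0.47 without injury and by 2.30 ± 0.47 at 1 dpi (limma adjusted p = 0.00221 and 0.0428), and the call at 1 dpi was lost in 20 of 30 alternatives. Tnfaip6 was at 73.6 and 152.3 against 0 and 0 (limma adjusted p = 0.000692), and Frmd4a was higher by 2.14 ± 0.32 (limma adjusted p = 0.00328).

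The genes whose bulk profile was most like each factor were ranked by Pearson r of log2(value + 1) over the 12 libraries, which share their groups, and are given as a description. For Olig2 they were Tdg-ps (0.965), Gm15920 (0.958) and Tspan12 (0.95). For Sox10 they were Sprr2a2 (0.973), 2610318N02Rik (0.972) and Cldn4 (0.964), and for Olig1 they were Cnr1 (0.956), Nid1 (0.95) and Atp5g3 (0.95). For Zfp488 they were Ccpg1os, Neurl3 and Ttll5, at 0.939 to 0.916, and for Sox8 Sh3d19, Ank and Ythdf3, at 0.935 to 0.901. For Nkx2-2 they were Atp8a2, Gad1 and Ugt8a, at 0.880 to 0.809, and for Myrf Elmo2, Lpar2 and Fbxw8, at 0.911 to 0.831. None of the 7 factors was among the 3 genes most like another.

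The single-cell RNA matrix held 3500 cells, of which 3285 were in the authors' cell table. Its cells carry 6 library codes that cannot be tied to a genotype or time here, so values are given by code with no test. Median depth was 2714 UMIs (unique transcript molecules) per cell in code 017 and 5090 to 7397 in the others. The codes shared 7 barcodes. Intervals cover counting error only, and doublets were not called.

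The 7 factors were concentrated in codes 020 and 073. Olig2 gave 317 UMIs in 90 of 360 cells in code 073 and 63 UMIs in 40 of 337 cells in code 020. In code 017 it gave 9 UMIs in 9 cells, in 019 5 in 5 cells, in 072 10 in 1 cell and in 018 none in 895 cells. Sox10 gave 613 UMIs in 146 cells in 073 and 238 in 54 cells in 020, and 5, 0, 0 and 2 in 017, 018, 019 and 072. As CPM, the UMIs of a gene scaled to a common total, Sox10 was at 193 in 073, 116 in 020 and 4.74 or less in the rest. Myrf was at 81.1 in 073, 39.6 in 020 and 3.80 or less in the rest. Nkx2-2 was at 31.7 and 26.4, and Zfp488 at 6.60 and 11.7, in 073 and 020. Zfp488 was without a UMI in the other 4 codes. Sox8 was found in all 6 codes, at 53.7 and 29.3 in 073 and 020 and at 1.90 to 7.34 in the rest.

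Olig1 departed from the others in code 017. It gave 94 UMIs in 84 of 362 cells there, 89.2 CPM, beside 113 in code 020 and 268 in code 073. Thinned to 2000 UMIs a cell, 15.8% of the cells of code 017 held Olig1, 18.1% of code 073 and 9.09% of code 020. The same thinning left Olig2 in 1.01%, 13.1% and 3.94%, and Sox10 in 1.01%, 23.6% and 10.0%. In code 017, 83 of the 84 cells with Olig1 fell in ependymal-like clusters. Myelin transcripts were also spread over those 355 cells, with Mbp in 34.4%, Mag in 10.4% and Mog in 6.20%. The part of free RNA from other cells in the Olig1 UMIs of code 017 was not tested.

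**Figure D2:**
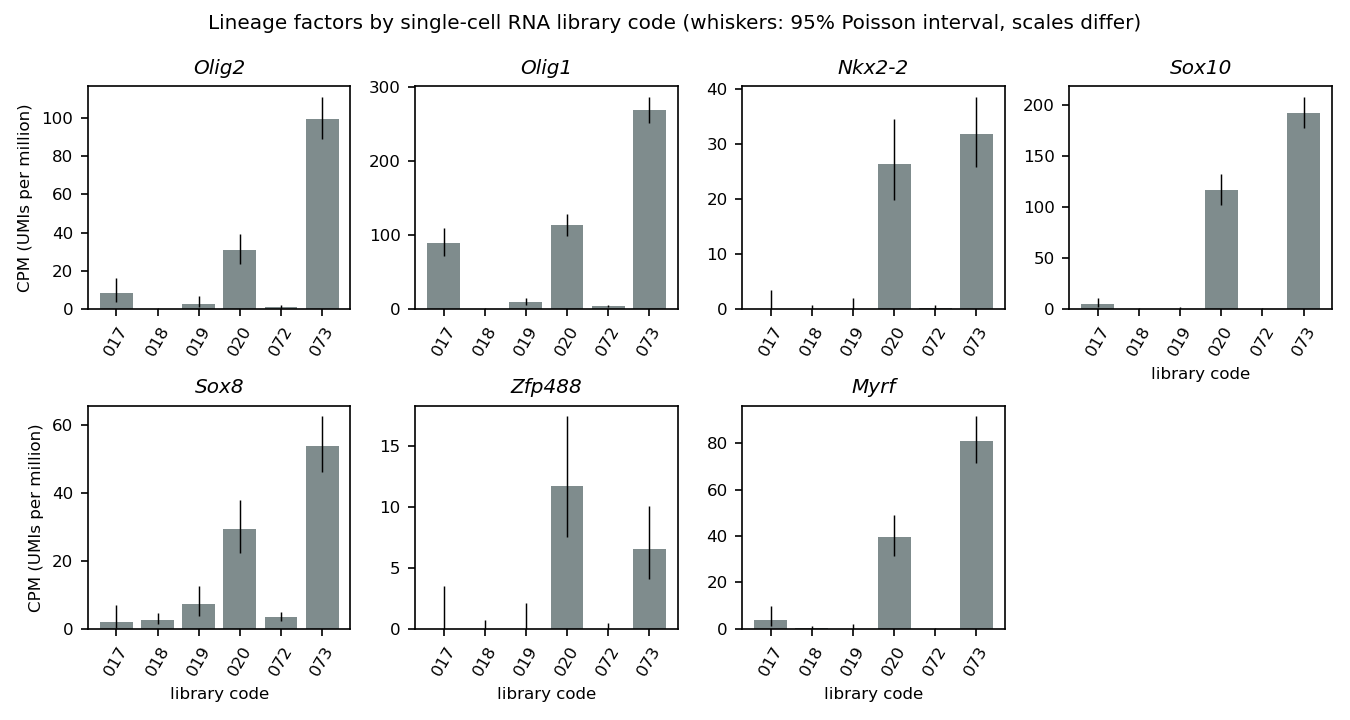
Level of each factor by single-cell RNA library code, in CPM on the vertical axis (scales differ between panels); bars are sums over the kept cells of a code and whiskers 95% Poisson intervals. Codes 020 and 073 stand above the others for 6 factors, while Olig1 also stands at 89.2 in code 017.

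Clustering without the 7 factors gave 15 clusters, of which 10 were ependymal-like (2619 cells), 1 oligodendrocyte progenitor-like (59 cells) and 1 oligodendrocyte-like (126 cells). The progenitor-like cells came from codes 073 (35), 020 (22), 018 (1) and 072 (1), and the oligodendrocyte-like cells from 073 (93) and 020 (33). All 10 markers of its own type were detected in each of these 2 clusters. Clusters 6, 7 and 14 stayed unnamed: cluster 6 was led by myeloid genes (223 of 224 cells from code 020), cluster 7 came mainly from code 073 (192 of 202) and cluster 14 was led by cell cycle genes (55 cells). Since these libraries each lend most cells to different clusters, a cluster may be a library rather than a type. All 8 ependymal markers were also detected in clusters 6, 7 and 14, with Foxj1 in 69.6%, 81.7% and 38.2% of cells. Clusters 7 and 14 stayed out of the ependymal-like class for holding 4 lineage markers. The low factor levels of that class are thus partly set by its naming. Codes 020 and 073 gave 43 and 26 of the ependymal-like cells.

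Olig1 and Olig2 were highest in the progenitor-like cells and Myrf in the oligodendrocyte-like cells. Olig2 was found in 84.7% of progenitor-like cells (exact binomial interval 73 to 92.8), in 32.5% of oligodendrocyte-like cells (24.5 to 41.5) and in 0.725% of ependymal-like cells (0.437 to 1.13). Its level fell from 509 CPM in the progenitor-like cells to 67.5 in the oligodendrocyte-like cells. Olig1 was found in 94.9%, 47.6% and 3.51%, at 1529, 244 and 6.24 CPM. Myrf showed the opposite order, in 3.39% of progenitor-like cells and 77.8% of oligodendrocyte-like cells, at 4.71 and 230 CPM. Ependymal-like cells held Myrf in 0.267%, and the part of free RNA in that share was not tested.

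The remaining factors were found at like levels in both lineage classes. Sox10 stood at 415 CPM in progenitor-like cells and 422 in oligodendrocyte-like cells, in 94.9% and 85.7% of cells. Sox8 was at 123 and 101, Nkx2-2 at 101 and 69.6, and Zfp488 at 18.8 and 24.6 in the same order. The Poisson intervals of the 2 classes overlapped for each of these 4 factors. In 2619 ependymal-like cells Nkx2-2 and Zfp488 had no UMI, which allows a share of cells with a UMI of up to 0.115% and sets no limit on the share that expresses them. Sox10 was found in 0.420% of them and Sox8 in 2.06%. Depth differed, with medians of 7771, 9677.5 and 5617 UMIs in progenitor-like, oligodendrocyte-like and ependymal-like cells. Thinned to 2000 UMIs, Olig2 was in 44.8%, 12% and 0.240% of them, and Myrf in 0%, 32.8% and 0.160%.

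Foxj1, the ependymal factor in both genotype names, was found in 74.6% of ependymal-like, 5.08% of progenitor-like and 35.7% of oligodendrocyte-like cells. In the oligodendrocyte-like cells it was found in 46.2% of code 073 and 6.06% of code 020. The lineage factors of those cells were closer between the codes, with Sox10 in 89.2% and 75.8%, Myrf in 79.6% and 72.7% and Olig2 in 33.3% and 30.3%. Zfp488 was in 14.0% of the code 073 cells and 30.3% of the code 020 cells, with overlapping intervals.

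**Figure D3:**
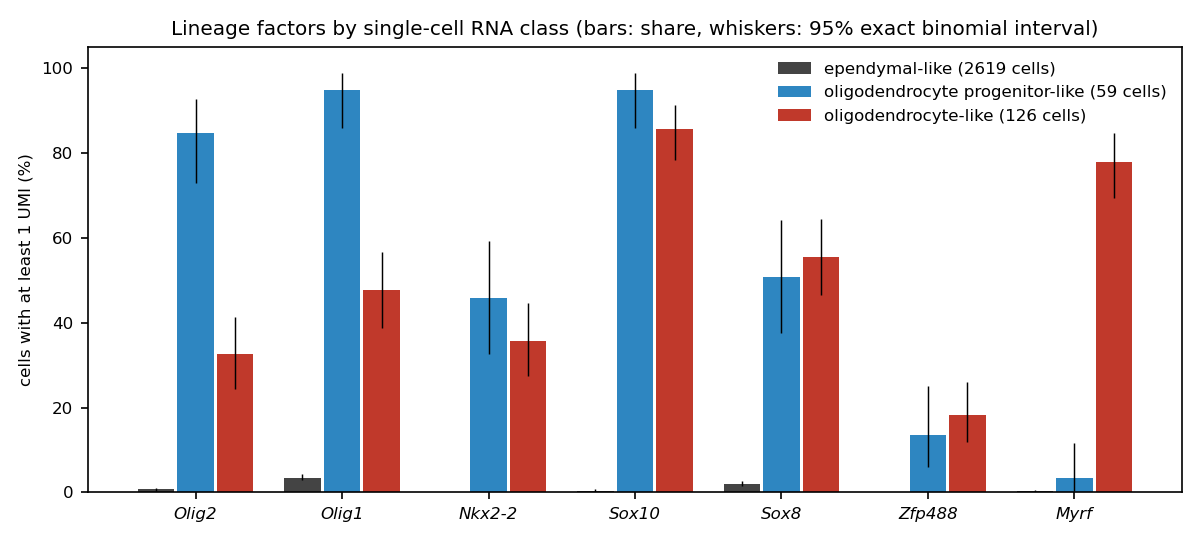
Share of cells with at least 1 UMI of each factor, in percent on the vertical axis, in ependymal-like, oligodendrocyte progenitor-like and oligodendrocyte-like cells; whiskers are 95% exact binomial intervals. Olig2 falls from 84.7% to 32.5% and Myrf rises from 3.39% to 77.8% between the progenitor-like and oligodendrocyte-like cells.

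Factors were also found in the unnamed clusters 7 and 14. In cluster 7 Olig1 was in 9.41%, Olig2 in 8.42% and Sox10 in 7.92% of 202 cells, and 144 cells held none of the 7. Thinned to 2000 UMIs, Olig1 was in 1.99% of the cells of cluster 7 and 2.08% of the ependymal-like cells, and Sox10 in 3.98% and 0.240%. Code 017, which has no cell in cluster 7, gave most of those ependymal-like cells with Olig1. In cluster 14, of 55 cells, 15 held Sox10, 14 Olig1, 10 Olig2, 7 Nkx2-2 and 6 Sox8, while Myrf and Zfp488 had no UMI. There, 39 cells held none of the 7 and 3 held 1 factor, while 5 held 3, 6 held 4 and 2 held 5. In the ependymal-like cells 2446 of 2619 held none, and the number of factors per cell reached 3 in 1 cell. Progenitor-like cells most often held 4 factors (20 of 59 cells). All 7 factors were found together in 5 cells, each oligodendrocyte-like, of which 4 were in code 073 and 1 in code 020.

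Cells with an Olig2 UMI held the other factors more often. With every cell thinned to 2000 UMIs, Olig1 was in 56.9% of the 65 cells with Olig2 and 3.53% of the 3087 without. Sox10 was in 46.2% and 2.98%, Nkx2-2 in 13.8% and 0.551%, and Sox8 in 9.23% and 1.46%. Myrf was in 6.15% and 1.36%, and Zfp488 in 4.62% and 0.162%. Foxj1 was in 10.8% and 40.5%. Within a class the shares lay closer: in progenitor-like cells Sox10 was in 65.4% of the 26 with Olig2 and 53.1% of the 32 without, with overlapping intervals. Olig1 was in 92.3% and 81.3% of those cells. Within oligodendrocyte-like cells Myrf was in 3 of the 15 with Olig2 and 38 of the 110 without, again with overlapping intervals.

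**Figure D4:**
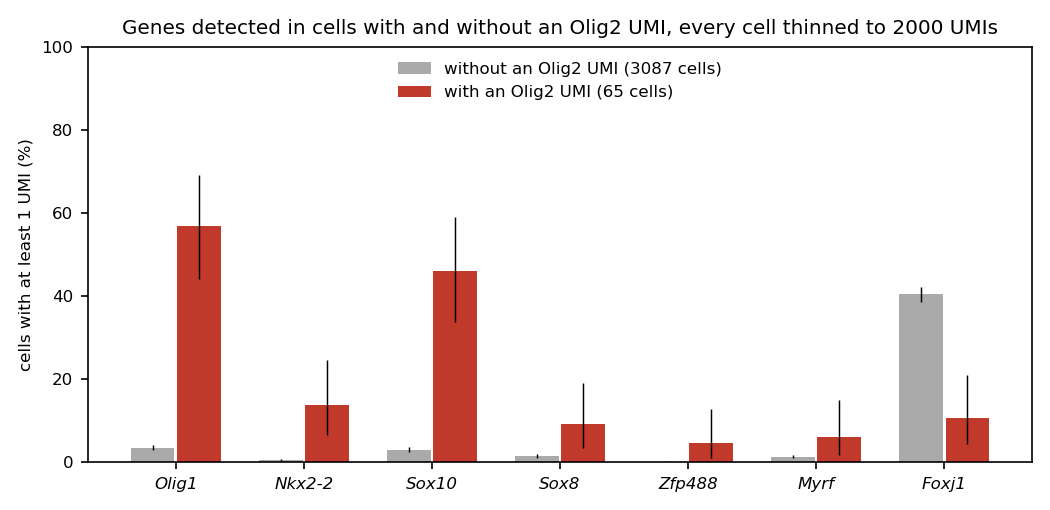
Share of cells with at least 1 UMI of each gene, in percent on the vertical axis, in cells with (red) and without (grey) an Olig2 UMI, each cell thinned to 2000 UMIs; whiskers are 95% exact binomial intervals. Olig1 and Sox10 stand at 56.9% and 46.2% beside Olig2, and Foxj1 at 10.8% against 40.5% without it.

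In the uninjured cord, the chromatin of the 7 genes was described in 1084 cells of 1 sample, in the 8 classes named by the authors, with no test. Ependymal-type classes EP1, EP2 and EP3 had the highest Foxj1 signal (235 to 282 CPM, the cut sites scaled to a common total), OPC the highest Pdgfra (136) and Cspg4 (212), ACNT1 and ACNT2 the highest Aldh1l1 (112 and 114) and VEC the highest Cldn5 (147). PER also had Pdgfra (115) and Cspg4 (104). Rgs5, a pericyte marker, had 0 cut sites in PER and was highest in OPC (4.72). The myelin gene Mbp gave 97.5 to 123 in the EP classes, beside 142 in OPC, and Mag at most 4.33, in OPC. Peak positions are those of the authors' peak names, in mm10, the build named in the submitters' processing notes.

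Sox10 and Zfp488 were open in the OPC class and nearly closed elsewhere. The 4 peaks of Sox10 (chr15:79154913-79164490) gave 72.4 CPM in OPC, 8.63 in ACNT2, 3.38 in ACNT1 and 1.94 or less in the EP classes. Most came from the peak at chr15:79151815-79153107, 1806 bases outside the gene, at 63.0 in OPC and 1.77 or less in the EP classes. The 3 peaks of Zfp488 (chr14:33967070-33979034) gave 29.5 in OPC and 2.27 or less in the other classes. Its peak at chr14:33974802-33975081, inside the gene, held 30 cut sites in OPC cells and none in any other class. The peak over the promoter printed above, chr14:33978665-33979125, gave 14.2 in OPC and 0.485 to 0.851 in the EP classes.

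Olig2 and Olig1 were open in both ACNT classes as well as in OPC. The 4 peaks of Olig2 (chr16:91225550-91228677) gave 243 in ACNT1, 210 in ACNT2, 119 in OPC and 1.94, 5.43 and 6.75 in EP1, EP2 and EP3. The peak over its printed promoter, chr16:91224649-91225982, gave 86.2, 88.6 and 64.1 in ACNT1, ACNT2 and OPC, and 0, 2.75 and 2.19 in the EP classes. In EP2, the class with the most cut sites per cell, 12.4% of cells had a cut site in an Olig2 peak, against 80.6% in OPC. The single Olig1 peak, chr16:91269302-91271554, over the gene at chr16:91269769-91271939, gave 156, 103 and 46.8 in ACNT1, ACNT2 and OPC and 4.38 to 5.82 in the EP classes.

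Sox8, Nkx2-2 and Myrf had signal in the EP classes as well, below that of OPC and both ACNT classes. The 2 peaks of Sox8 (chr17:25565893-25570686) gave 34.7 to 52.4 in the EP classes, 123 in OPC, 220 in ACNT2, 282 in ACNT1, 94.4 in PER and 8.76 in VEC. One of them covers the printed Sox8 promoter and also overlaps the gene Cerox1. The 8 peaks of Nkx2-2 (chr2:147176485-147195434) gave 15.9 to 18.7 in the EP classes, 219 in OPC, 129 in ACNT1, 116 in ACNT2, 30.7 in VEC and 18 in PER, and 5 of them overlap its antisense gene Nkx2-2os. One of the Nkx2-2 peaks that does not overlap it, chr2:147180625-147181726, gave 44.9 in OPC, 5.07 in ACNT1 and 0.485 or less in the EP classes.

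Myrf (chr19:10208271-10240777) used different peaks in different classes. Its 4 peaks together gave 17.2 to 21.9 in the EP classes, 36.2 in OPC, 44.0 in ACNT1, 49.5 in ACNT2, 34 in PER and 6.57 in VEC. The peak at chr19:10213434-10214477 gave 10.2 to 11.3 in the EP classes, 20.3 and 24.5 in ACNT1 and ACNT2, and 0.787 in OPC. The peak at chr19:10232871-10233103 gave 5.51 in OPC and 0.131 or less in the EP classes.

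**Figure D5:**
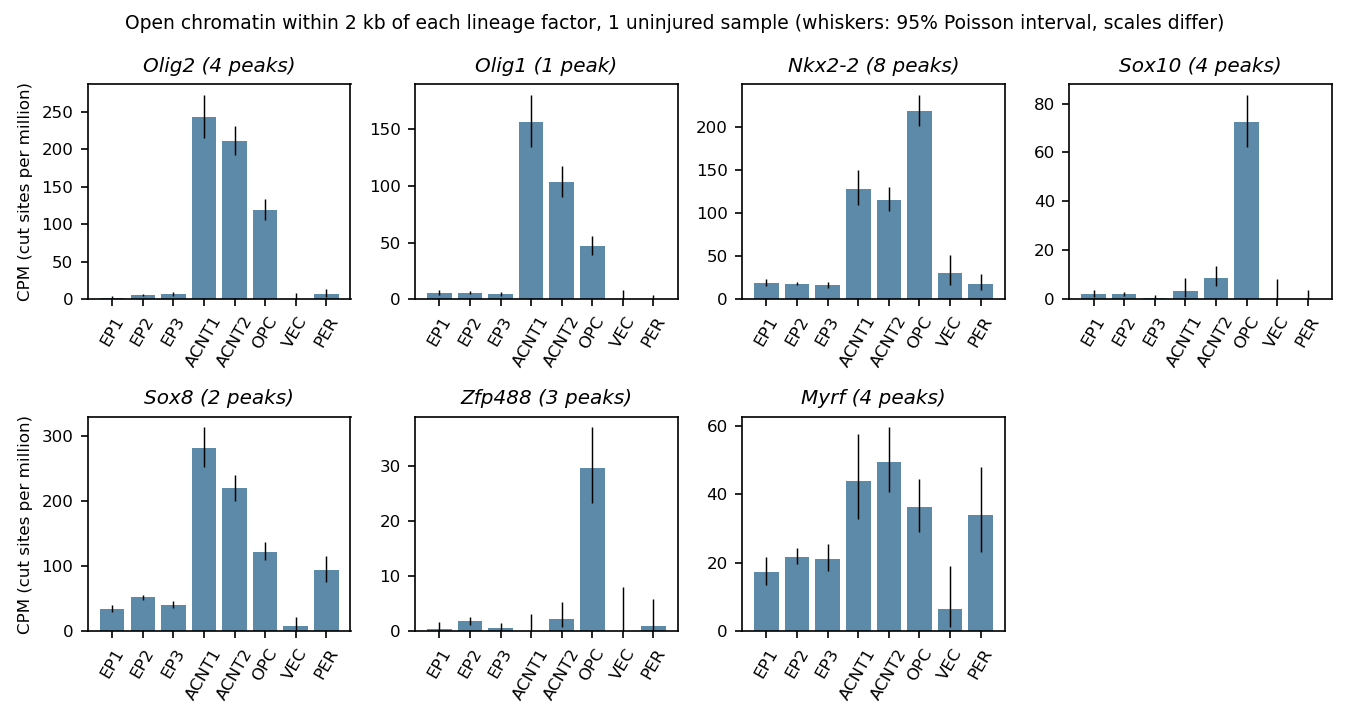
Open chromatin within 2 kb of each factor in 1 uninjured sample, in CPM on the vertical axis (scales differ between panels), by the authors' 8 classes; bars are sums over cells and whiskers 95% Poisson intervals. Sox10 and Zfp488 stand out in OPC, at 72.4 and 29.5, while Olig2 and Olig1 are highest in ACNT1, at 243 and 156.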

How the data were processed

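The deposited bulk table holds the authors' normalised counts per gene (a signal with 1 decimal, not whole reads) for 12 libraries. How they were scaled is not given in the sources used here. The authors also deposited whole UMI counts per gene and cell for the single-cell RNA, and counts of cut sites per peak and cell for the ATAC sample, with cell tables. The submitters' processing notes name build mm10 and, with no role, deepTools, SAMtools, Bowtie2, Cell Ranger and Cell Ranger ATAC. The 12 libraries of bulk ATAC were not used here.

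The 7 factors and the gene lists were chosen with earlier results of these data known. Bulk values were fitted with limma 3.58.1 (R 4.3.3; pseudocount 1, trended empirical Bayes, genes with at least 10 in 2 libraries). Genes named beside the factors are, per list and genotype contrast, up to 4 called genes with the largest change, no overlap and a group mean of at least 50, and the 3 genes most like each factor. Some genes that met this rule are not reported here. The scripts were tested on simulated data.

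Cells outside the authors' table were left out (215, of which 176 carry code 020). Clusters were made in scanpy 1.11.5 (from 2000 variable genes without the 7 factors, 30 components, 15 neighbours, Leiden resolution 1) and were named from at least 3 markers, each found in 25% of cells. An ependymal cluster with 4 or more markers of the oligodendrocyte lineage stayed unnamed, as did 1 led by myeloid genes, choices made after seeing the clusters. Levels of UMIs or cut sites are CPM with an exact Poisson interval (95%). The interval of a share is exact binomial (Clopper-Pearson).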

Additional observations from a re-analysis of the deposited data

Results flagged for a closer look

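The change from uninjured to 5 dpi differed between genotypes for Sox10 (limma adjusted p = 0.00897), which was at 0 and 1 without injury and at 591.6 and 765.4 at 5 dpi in Foxj1_Olig2_tdT. Sox10 passed the filter on low values through that last group alone, so the filter and this p-value rest on the same libraries. The call was lost without either uninjured Foxj1_tdT library and with both counted as 1.

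Other genes of the lists also changed differently with injury in the 2 genotypes, by the interaction term of the limma fit. Of the 79 list genes tested, 5 were called for it at 1 dpi and 11 at 5 dpi. These are 6.33% and 13.9%, beside 2.77% and 7.28% of all genes. The genes below were named for a called genotype difference that itself enters the interaction, so their calls add no separate support. At 1 dpi these included Tnfaip6 (limma adjusted p = 0.0499), Vcan (0.0122), Zfp536 (0.014) and Id3 (0.0379). At 5 dpi they included Tnfaip6 (limma adjusted p = 0.0106), Vcan (0.00285), Zfp536 (0.0107) and Id3 (0.0121), each of which was near 0 in uninjured Foxj1_tdT and above 50 in uninjured Foxj1_Olig2_tdT. Frmd4a, Tmem2, Nkx6-1 and Hdac2 differed at 5 dpi (limma adjusted p = 0.033, 0.0394, 0.0183 and 0.0144).

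In the 215 single cells outside the authors' cell table, Olig1 gave 9 UMIs in 8 cells and Sox10 gave 6 UMIs in 6 cells, above the 3 that a count of 0 allows. Olig1 was in 3.72% of them at 3.23 CPM, beside 3.51% of the ependymal-like cells at 6.24 CPM. Code 017, which gave most of the ependymal-like cells with Olig1, has no cell outside the table. Sox10 was in 2.79% at 2.16 CPM, beside 0.420% at 0.666 CPM. The median depth was 12207 UMIs against 5617, and thinned to 2000 UMIs Sox10 was in 0% and 0.240%. The part of free RNA in the UMIs of either gene was not tested. Of these cells 176 carry code 020, whose kept cells held Sox10 at 116 CPM.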

How the results depend on the processing

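No called change of a factor changed sign under any alternative run. Changes that were not called did, such as Olig1 between genotypes at 5 dpi (-2.77 to 1.37). The count of factors called for the interaction at 5 dpi was 2 with a pseudocount of 8 and 0 with both uninjured Foxj1_tdT libraries counted as 1. The count for Foxj1_tdT from uninjured to 5 dpi was 1 with quantile normalization (Olig2 had limma adjusted p = 0.0902) and 0 with those libraries as 1. Leaving out 1 library at a time gave 0 to 3 called factors for genotype at 5 dpi, 0 to 3 for injury to 5 dpi in Foxj1_Olig2_tdT, 0 to 2 in Foxj1_tdT, 0 to 1 in Foxj1_tdT at 1 dpi and 0 to 2 for the interaction at 5 dpi. With the filter kept from all 12 libraries Sox10 was tested in every run, in some of them through a library then left out. Its calls there add no separate support. Other size factors and no filter left all 9 counts as they were. Same-numbered replicates did not deviate together (r from -0.0296 to 0.0222), so the numbers were not taken as pairs, and a fit with the replicate number as a block gave the same 9 counts: for genotype 1, 1 and 2 in order of time, for injury 0 and 2 in Foxj1_tdT and 0 and 3 in Foxj1_Olig2_tdT, and for the interaction 0 and 1.

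Of the list genes named, Hdac2 at 5 dpi, Ptprz1 at 1 dpi and Tmem2 at 1 dpi each lost their call in 20 of 30 alternatives, with limma adjusted p up to 0.261, 0.161 and 0.143, and Susd5 at 5 dpi in 11 (up to 0.116). The replicate block ended the calls of Hdac2, Ptprz1 and Tmem2 there (limma adjusted p = 0.0628, 0.0503 and 0.0662). Of 56 levels of open chromatin by factor and class, 45 moved by less than their interval with peaks within 1 kb, 23 with peaks within 10 kb and 50 with scaling to fragments passing filters. The 1 kb window changed the peaks of Olig2 (4 to 2) and Sox10 (4 to 3) alone, so levels of the other factors could not move. The peak that Sox10 lost, 1806 bases outside the gene, held most of its OPC signal. At 2000 UMIs a cell, 22 of 42 shares by library code moved beyond their interval. Thinning takes UMIs from nearly every cell, so falls are built into it. They reached well-detected factors too, such as Sox10 in code 073 (40.6% to 23.6%).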
